A study of Mus musculus with 65 samples.

Results

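The 150 genes described here had, among 4 untreated stages of young neural stem cells, their highest expression 6 h after growth factors were withdrawn. They were chosen on the deposited variance-stabilised (VST) values, a log2-like scale, in untreated cells of young mice. Features with a mean count over 100 in the young 6 h differentiation libraries (13844 of 31057 in the table) were ranked by the mean at 6 h minus the highest of the means at 18 h in stem cell medium, 18 h of differentiation and 48 h of differentiation. This difference is called the peak height, and the 150 features with the largest values were taken. The young untreated libraries therefore chose the genes, and their values are given as a description with no test. The tests use libraries of old mice.

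Primary neural stem cells from the subventricular zone of adult mice were cultured and their poly(A) RNA was sequenced in 65 libraries of 15 groups. All mice carried the iOSKM genotype, a doxycycline-inducible cassette for the reprogramming factors Oct4, Sox2, Klf4 and Myc, controls included. The labels do not name the promoter that drives it. Young mice were 3 to 4 months old (5 animals, 3 female and 2 male) and old mice 25 months (4 animals, 2 female and 2 male), and each replicate is an animal. Stem cell medium (Neurobasal-A with B27) contained EGF and bFGF, the growth factors that keep these cells dividing. Differentiation began 18 h after plating with a change to medium without both factors, and doxycycline was given at 2 µg/ml. Untreated libraries of both ages came from 18 h in stem cell medium and from 6, 18 and 48 h of differentiation. Doxycycline libraries came from 18 h in stem cell medium in young mice. In old mice they came from 6, 18 and 48 h in stem cell medium and from 6, 18 and 48 h of differentiation. The labels do not say from when the hours in stem cell medium were counted, and untreated libraries from 6 or 48 h in that medium are not listed.

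Libraries held 56.5 M to 116.8 M counts (median 86.7 M), in which a read pair usually adds 2 counts. A list of 10 neural stem cell markers summed to 5537 to 8965 CPM (counts scaled by library size) in all 65 libraries, so markers of the labelled cell type were present throughout. Of 12 microglia markers, 8 stayed under 1 CPM in every library, as did 6 of 10 endothelial, 5 of 10 pericyte and mural, 5 of 10 fibroblast and 3 of 10 ependymal markers. Pou5f1, the Oct4 transcript, lay at 0.168 to 1.39 CPM with doxycycline (29 libraries, median 0.442) and at 0 to 0.368 CPM without it (36 libraries, median 0.126), and these ranges overlapped. The libraries of young animal 5 stood apart in the mitosis genes described next, with the lowest mean in each of 3 young groups. Their values are given beside the results that rest on them.

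Stem cells that lose EGF and bFGF leave the cell cycle and begin to turn into neurons, oligodendrocytes and astrocytes. Cells past the restriction point complete the division under way before they stop. Genes for mitosis are transcribed late in the cycle, when repressive complexes at their promoters give way to B-Myb and FoxM1, and they are switched off in cells at rest. The same withdrawal lowers PI3K and AKT activity, which releases FoxO factors, and it ends the MAP kinase signal that feeds Sprouty, Dusp and Etv genes.

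By function, 41 of the 150 genes act in mitosis and chromosome segregation and 8 in DNA repair and chromosome maintenance. A further 9 belong to centrosome, cilium and microtubules, 14 are extracellular signals, receptors or their regulators, 10 act in stress, growth arrest and redox control, and 7 in transcription and chromatin. There were 6 immune genes, 5 for neuronal channels and synapses, 2 for myelin proteins and 48 with other or unassigned functions. These groups were drawn up from general knowledge after the genes were known. The 41 are called mitosis genes below and are set beside the other 109.

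Promoter sequences were matched in RefSeq for 117 of the 150 genes (36 mitosis and 81 other), each from 250 bases before to 50 bases after the annotated start. The letters TTTGAA on either strand form the core of the cell cycle homology region, at which late cell cycle genes are repressed in resting cells, and CCAAT is the box bound by NF-Y. Both motifs were chosen after the genes were known. Within 50 bases either side of the start, TTTGAA was present in 20 of 36 mitosis promoters (55.6%), in 3 of 81 other promoters (3.70%) and in 4.92% of all 27025 promoters in the table. CCAAT stood in the same 100 bases in 55.6% of the mitosis promoters, 21.0% of the others and 13.9% of all. Over the whole 300 bases TTTGAA was in 69.4% of mitosis promoters, 24.7% of others and 20.2% of all, and CCAAT in 77.8%, 65.4% and 41.1%. These are matches of letters, described with no test.

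The following 4 promoters of mitosis genes were picked because they hold both motifs, and they show where the motifs lie, from 120 bases before the RefSeq start (build GRCm38.p6) onward, 5′ to 3′ on the strand of the gene. Capitals mark TTTGAA and CCAAT or their reverse complements TTCAAA and ATTGG. They belong to Ccnb2, encoding cyclin B2 (chr9:70421543-70421674, minus strand), Cenpf, encoding a kinetochore protein (chr1:189688075-189688206, minus strand), Cdc20, encoding an activator of the anaphase-promoting complex (chr4:118437332-118437463, minus strand), and Ube2c, encoding its ubiquitin-conjugating enzyme (chr2:164769809-164769940, plus strand).
Ccnb2: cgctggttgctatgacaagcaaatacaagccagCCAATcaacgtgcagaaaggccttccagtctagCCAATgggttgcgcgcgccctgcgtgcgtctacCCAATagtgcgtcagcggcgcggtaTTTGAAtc
Cenpf: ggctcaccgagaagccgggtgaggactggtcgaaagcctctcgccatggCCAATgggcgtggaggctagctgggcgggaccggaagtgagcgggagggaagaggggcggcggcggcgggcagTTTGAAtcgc
Cdc20: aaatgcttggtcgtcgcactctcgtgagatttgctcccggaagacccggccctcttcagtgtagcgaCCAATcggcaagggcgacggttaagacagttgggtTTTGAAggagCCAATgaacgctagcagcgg
Ube2c: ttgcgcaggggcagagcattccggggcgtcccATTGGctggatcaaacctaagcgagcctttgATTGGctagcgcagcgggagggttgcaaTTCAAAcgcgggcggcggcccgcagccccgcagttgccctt
With the start base counted as 0, the motif began at 4 in Ccnb2, at 2 in Cenpf, at -18 in Cdc20 and at -29 in Ube2c. Ccnb2 held 3 CCAAT boxes at -87, -54 and -21. Not every mitosis promoter is like these, since the same window held CCAAT alone in Ccnb1 and neither motif in Pttg1 and Knstrn. In Spc25 it held CCAAT, and TTTGAA lay past its end, at 24. The window of Pttg1 (chr11:43425970-43426101, minus strand) belongs to a RefSeq start inside the gene. It lies downstream of the GENCODE start at chr11:43426251, so the sequence before that start was not examined.

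For contrast, the same window is shown for 2 of the other genes, picked because it holds neither motif, Nkd1, which encodes an inhibitor of Wnt signalling (chr8:88527513-88527644, plus strand), and Ccng2, which encodes cyclin G2, a FoxO-induced brake on the cell cycle (chr5:93267453-93267584, plus strand). All letters are therefore small. Both windows lie downstream of the gene starts in GENCODE (chr8:88521354 for Nkd1 and chr5:93267257 for Ccng2). They belong to RefSeq starts inside these genes.
Nkd1: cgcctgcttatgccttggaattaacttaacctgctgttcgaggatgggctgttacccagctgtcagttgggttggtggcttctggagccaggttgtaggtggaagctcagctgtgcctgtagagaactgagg
Ccng2: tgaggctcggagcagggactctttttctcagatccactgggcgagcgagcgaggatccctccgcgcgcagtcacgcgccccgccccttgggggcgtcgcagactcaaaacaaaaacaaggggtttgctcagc
Among motifs of factors downstream of growth factor loss, the FoxO site GTAAACA was in 4.27% of the 117 promoters and 4.05% of all. The AP-1 site TGACTCA was in 6.84% and 5.95%, the proneural E-box CAGCTG in 20.5% and 18.3%, and the Tcf/Lef site CTTTGAA, which contains TTTGAA, in 4.27% and 5.93%.

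In young untreated cells the peak height ran from 0.64 to 1.57 VST units with a median of 0.81, which only restates the choice. The genes just inside the limit were Apool (0.645), Ablim1 (0.644) and Miip (0.644), and those just outside were Cald1 (0.644), Birc5 (0.643) and Cdkn3 (0.641). Birc5 and Cdkn3 are themselves cell division genes, so the limit does not part mitosis genes from the rest. The genes of highest rank were Ky, Nkd1, Ddit4, Cdh19, Slit1, Ccnb2, Hrc, Rec8, Heg1, BC034090, Neurl1b and Knstrn. The group with the next highest mean was stem cell medium for 87 genes, 18 h of differentiation for 54 and 48 h for 9. Among mitosis genes it was stem cell medium for 40 of 41.

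**Figure D1:**
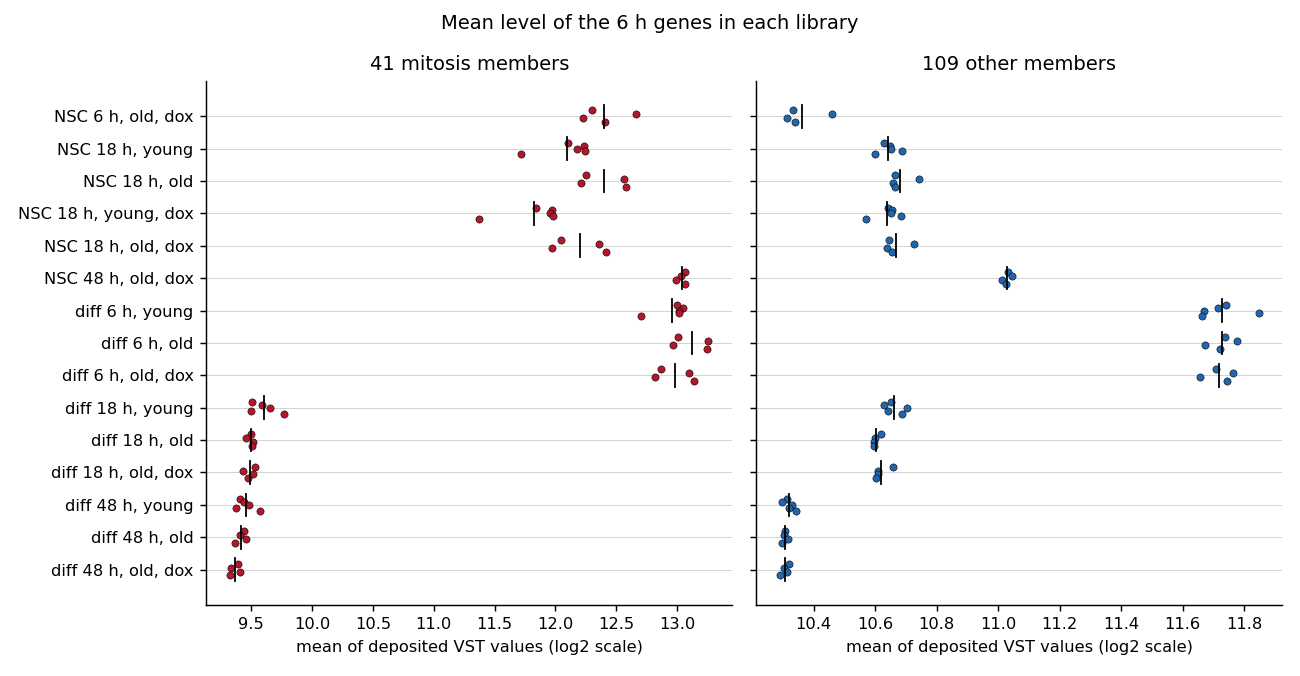
Mean VST value (log2 scale) of the 41 mitosis genes and of the other 109 genes in each library, by group, with points for libraries and black ticks for group means; groups with no treatment named are untreated. In old untreated cells the mitosis mean lay at 12.97 to 13.26 at 6 h and 9.46 to 9.52 at 18 h of differentiation, and the other mean at 11.67 to 11.78 and 10.60 to 10.62.

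The rise to 6 h was present in old mice, whose libraries did not choose the genes. In old untreated cells all 150 genes rose from 18 h in stem cell medium to 6 h of differentiation (edgeR, adjusted p under 0.05), where 38.2% of the 16972 tested genes rose. The median rise was 2.18-fold (log2 fold change 1.12, range 0.40 to 6.0), against a median log2 change of 0.02 over all tested genes. The mitosis genes rose by a median of 1.67-fold (log2 0.74) and the other genes by 2.54-fold (log2 1.34). In bulk RNA a change in the number of cells that express a gene and a change in RNA per cell cannot be told apart.

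Markers of other cell types moved over the same interval in old untreated cells. The 10 pericyte and mural markers summed to 182 to 205 CPM in stem cell medium and 390 to 442 CPM at 6 h of differentiation, although of 5 tested 2 rose and 2 fell. The 10 ependymal markers summed to 37.5 to 43.3 CPM and 61.7 to 68.0 CPM, and of 8 tested 5 rose and 0 fell. The 10 endothelial markers went the other way, from 14.2 to 20.7 CPM to 8.02 to 10.97 CPM, and the 10 fibroblast markers lay at 84.5 to 122 CPM and 78.1 to 98.1 CPM. None of these markers is among the 150 genes, and their part in the rise was not tested.

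From 6 to 18 h of differentiation in old untreated cells all 150 genes fell, where 33.6% of tested genes fell, by a median log2 change of -1.83. The mitosis genes fell to a far larger extent, by a median of 45.9-fold (log2 change -5.52), while the others fell by 2.66-fold (log2 change -1.41). From 6 to 48 h all 150 fell again, by a median log2 change of -2.76, where 38.2% of tested genes fell. These fits share the 6 h libraries, so they are not independent of each other.

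The 6 h value was the highest of the 4 untreated stages for 150 of 150 genes in old mice, which held for 20.3% of the 13873 genes with enough counts. In 148 genes every old 6 h library lay above every other untreated old library (10% of all such genes). Peak height in old cells had a median of 0.75 VST units. It was lowest for Reps2 (0.28), Gadd45b (0.35), Plk1 (0.38), H2afx (0.43), Etv1 (0.46), Igf1 (0.48), Kifc1 (0.49) and Cdca8 (0.50).

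Cyclin B2 is a regulatory partner of Cdk1 at entry into mitosis, and Ccnb2 (ENSMUSG00000032218, mm10 chr9:70407692-70421547) showed the largest log2 rise among the mitosis genes. In old animals 1 to 4 it lay at 25.3, 35, 26.5 and 34.6 CPM in stem cell medium at 18 h and at 67.9, 82.9, 66.8 and 84.8 CPM at 6 h of differentiation. By 18 h it was at 0.849, 1.07, 1.66 and 1.14 CPM. Every 6 h library lay above every stem cell library, and every 18 h library lay below both (rise 1.34 ± 0.13 SE on the log2 scale, adjusted p = 2.22e-05, edgeR; later change -6.03 ± 0.18, adjusted p = 1.2e-08; n = 4 and 4).

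Ccnb1, encoding cyclin B1, rose from 82.9, 120, 82.5 and 117 CPM to 140, 163, 140 and 168 CPM. It then dropped to 1.87, 1.25, 1.33 and 1.52 CPM at 18 h. The log2 rise was 0.63 ± 0.15 (adjusted p = 0.00511, edgeR, n = 4 and 4) and the groups did not overlap.

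Plk1, the polo-like kinase of mitotic entry and spindle assembly (mm10 chr7:122159439-122169873), lay at 86.6, 109, 85.6 and 109 CPM in stem cell medium. At 6 h it reached 119, 138, 112 and 135 CPM, and at 18 h it was at 0.70, 0.984, 0.83 and 1.45 CPM. Its rise of 0.40 ± 0.10 on the log2 scale was the smallest of the 150 (adjusted p = 0.00774, edgeR, n = 4 and 4), and its groups did not overlap.

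The kinetochore gene Cenpf differed between animals at 6 h, with 165 and 154 CPM in animals 1 and 3 and 262 and 261 CPM in animals 2 and 4. In stem cell medium it lay at 108, 121, 88.4 and 147 CPM. The log2 rise was 0.89 ± 0.25 (adjusted p = 0.0141, edgeR), and without animal 2 it no longer passed (adjusted p = 0.0675). These fits have no animal blocks. Each animal was higher at 6 h, and with animals as blocks all 41 mitosis genes, Cenpf among them, passed. Other mitosis genes that rose were Knstrn (spindle and kinetochore; 1.15), Aspm (spindle poles; 1.04), Cenpe (kinetochore motor; 0.87), Nusap1 (spindle microtubules; 0.85), Bub1b (spindle checkpoint; 0.65) and Tpx2 (spindle assembly; 0.62), all as log2 fold changes.

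A list of 30 cell division genes, 8 of which are among the 150, had 12 that rose and 12 that fell from stem cell medium to 6 h in old untreated cells. These shares are near those of all tested genes, of which 38.2% rose and 37.4% fell. The 12 that fell were Mcm2 to Mcm7, Pcna, Rrm2, Tyms, Ccne1, Ccne2 and E2f1, genes of replication origin licensing, nucleotide supply and entry into S phase, and none is among the 150. Mcm3, a helicase subunit, fell by 1.82, the S phase regulator E2f1 by 1.76 and cyclin E2 (Ccne2) by 1.75 on the log2 scale. These genes are set together here by their direction. At 18 h of differentiation all 30 had fallen below 6 h, with a median log2 change of -5.34.

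**Figure D2:**
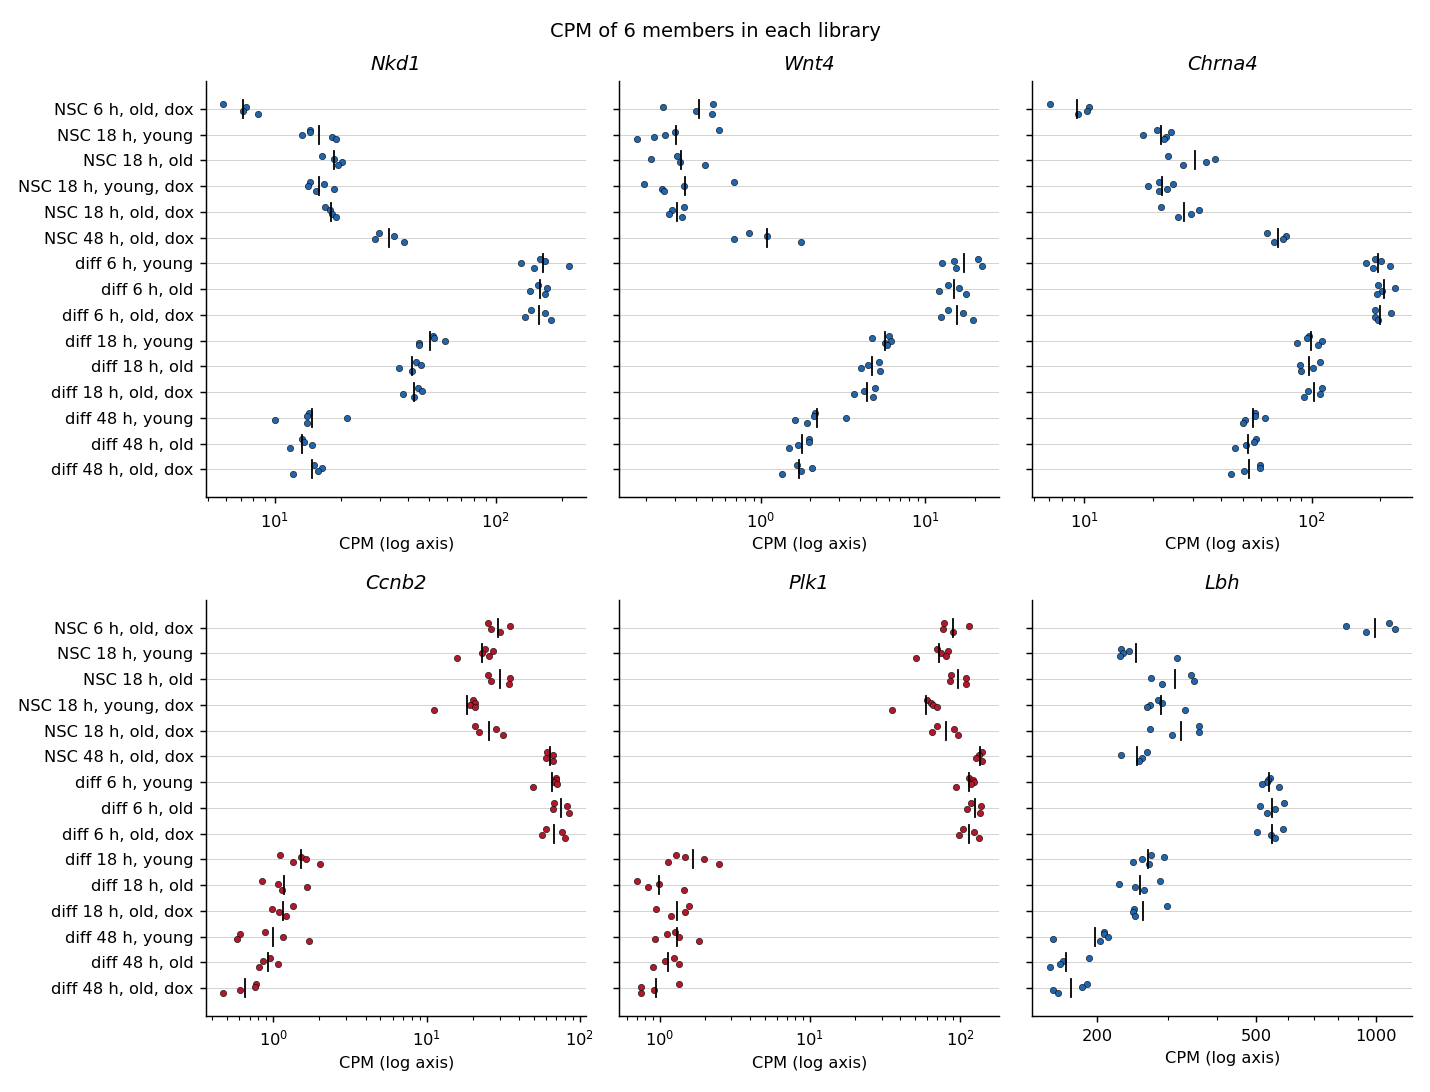
CPM (log axis) of 6 of the 150 genes in every library, by group, with points for libraries and black ticks for group means; groups with no treatment named are untreated. Ccnb2 reached 66.8 to 84.8 CPM in old untreated cells at 6 h of differentiation and lay at or below 1.66 CPM at 18 h, while Nkd1 at 18 h kept 36.5 to 45.9 CPM of its 143 to 171 CPM.

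Like all 150, the 14 genes for extracellular signals, receptors and their regulators rose to 6 h in old untreated cells (median log2 1.53) and fell by 18 h. Nkd1 (ENSMUSG00000031661, mm10 chr8:88521354-88594884) encodes an inhibitor that acts on Dishevelled in the Wnt pathway. In old animals 1 to 4 it rose from 16.4, 18.6, 20.1 and 19.2 CPM to 155, 171, 143 and 168 CPM, and in young mice its 6 h values were 159, 168, 130, 214 and 149 CPM. At 18 h the old libraries were at 43.4, 45.9, 36.5 and 42.0 CPM, and at 48 h at 13.3, 13.5, 14.8 and 11.7 CPM. The 6 h libraries lay far above all others, and every 48 h library lay below every stem cell library (rise 3.13 ± 0.07 on the log2 scale, adjusted p = 4.88e-11; 6 to 18 h -1.93 ± 0.08; edgeR, n = 4 and 4).

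Wnt4, a secreted Wnt ligand (mm10 chr4:137277489-137299726), was close to silent in stem cell medium at 0.309, 0.212, 0.321 and 0.455 CPM. It stood at 13.8, 16.2, 12.2 and 17.7 CPM at 6 h, at 5.25, 4.48, 4.04 and 5.32 CPM at 18 h and at 1.95, 1.95, 1.68 and 1.48 CPM at 48 h. The 4 stages did not overlap, and unlike Nkd1 the 48 h level remained above that in stem cell medium (rise 5.54 ± 0.19 on the log2 scale, adjusted p = 6.38e-10, edgeR). In a list of 33 Wnt pathway genes that holds both, 12 of 29 tested genes rose and 9 fell, near the 38.2% and 37.4% of all tested genes. Apcdd1, another Wnt inhibitor, rose by 4.14, while Axin2, a common readout of the pathway, fell by 0.14 (adjusted p = 0.0219, edgeR). Lef1, a transcription factor of the pathway, changed by -0.11 and did not pass (adjusted p = 0.609).

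Mfng, a glycosyltransferase that modifies Notch receptors, rose from 5.26, 4.37, 5.47 and 5.59 CPM to 39.0, 35.2, 35.6 and 40.0 CPM. It kept 20.3, 19.5, 20.3 and 21.3 CPM at 18 h, above every stem cell library (rise 2.88 ± 0.08, adjusted p = 4.69e-11; 6 to 18 h -0.88 ± 0.05, adjusted p = 5.88e-09; edgeR). Of 25 tested genes of the Notch and proneural list, 16 rose and 4 fell, where 38.2% and 37.4% of all tested genes did. Among those that rose were the Notch target Hes5 (4.07) and the ligand Dll1 (2.36), which are not in the 150. Neurl1b, a ubiquitin ligase for Notch ligands, rose by 1.41 and then fell below its stem cell level (6 to 18 h -4.06 ± 0.15).

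The axon guidance ligand Slit1 rose from 13.2, 13.7, 12.6 and 12.3 CPM to 37.6, 46.0, 36.8 and 40.8 CPM (1.67 ± 0.07, adjusted p = 9.22e-10, edgeR), and at 18 h it was at 9.28 to 10.5 CPM, under every stem cell library. Efna4, an ephrin ligand, rose by 0.80 and Cdh19, a cadherin, by 1.55. Jup, which encodes the junction protein plakoglobin, rose by 1.77. Igf1, the insulin-like growth factor, rose by 2.86 ± 0.54 but from a mean of 0.124 CPM to 0.895 CPM, so its fold is imprecise.

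Like all 150, the 10 genes for stress, growth arrest and redox control rose (median log2 1.34). Ccng2 (ENSMUSG00000029385, mm10 chr5:93267257-93276231) went from 17.6, 21.6, 19.7 and 19.9 CPM to 97.5, 100, 99.4 and 101 CPM and to 55.7, 53.8, 55.0 and 52.0 CPM at 18 h. Its 6 h libraries lay close together and its 18 h libraries were all above stem cell medium (rise 2.37 ± 0.05, adjusted p = 8.68e-12, edgeR, n = 4 and 4). Trp53inp1, an autophagy and stress gene, rose and returned, with 220, 221, 210 and 197 CPM before, 487 to 520 CPM at 6 h and 209 to 211 CPM at 18 h. Both belong to a list of 22 FoxO family and target genes with a median log2 change of 1.31. Of these 17 rose and 5 fell, where 38.2% and 37.4% of all tested genes did. Txnip, an inhibitor of glucose uptake, rose by 3.87 and Sesn3, another restraint on mTORC1, by 2.52, and neither is among the 150.

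Ddit4, an inhibitor of mTORC1 (mm10 chr10:59949669-59951834), rose from 101, 91.9, 104 and 87.8 CPM to 271, 252, 242 and 286 CPM and lay at 107, 102, 112 and 114 CPM at 18 h. The 6 h libraries lay above all those of both other stages (rise 1.48 ± 0.07, adjusted p = 1.11e-08, edgeR). Sesn2, which also restrains mTORC1, rose by 0.59 ± 0.05, from 134 to 152 CPM to 207 to 230 CPM. The integrated stress response list, to which both belong, moved the other way. Of 24 tested in it 3 rose and 19 fell, where 38.2% and 37.4% of all tested genes did. Ddit4 was also the single gene that rose of 25 tested in the hypoxia and glycolysis list, where 18 fell.

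Bbc3, a pro-apoptotic p53 target, rose from 17.4, 14.8, 17.2 and 17.2 CPM to 47.4, 43.4, 39.0 and 45.8 CPM (1.43 ± 0.07, adjusted p = 4.15e-09, edgeR). Of 23 genes in the p53 target list 10 rose and 10 fell, shares near those of all tested genes. The cell cycle inhibitor Cdkn1a and the p53 antagonist Mdm2, outside the 150, fell by 0.40 and 0.35. In the list of 16 cell cycle arrest genes 11 rose and 5 fell, where 38.2% and 37.4% of all tested genes did. Cdkn1c rose by 3.23 and Btg2 by 2.65.

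Gadd45b, a growth arrest and stress gene, had a peak height of 0.35 VST units in old cells and 1.05 in young cells. The young values chose the gene and it is named for its low old peak, so this difference is a description only. By group means, old minus young was -0.18 VST units at 6 h and 0.53 at 48 h. Its old 6 h libraries were at 9.92, 11.1, 10.7 and 8.67 CPM and its young ones at 14.6, 11.8, 11.6, 10.8 and 11.5 CPM, which overlapped. At 48 h the old libraries were at 5.27, 5.8, 6.38 and 10.4 CPM, so animal 4 was above its own 6 h value. The fall from 6 to 48 h passed narrowly (-0.54 ± 0.21, adjusted p = 0.0395, edgeR) and did not pass with animals as blocks (adjusted p = 0.0686).

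The 7 genes for transcription and chromatin rose, as all 150 did (median log2 0.83). Per3, a repressor of the circadian clock (mm10 chr4:151003652-151044665), went from 28.5, 26.9, 26.9 and 28.6 CPM to 75, 72.3, 71.4 and 69.8 CPM and to 40.2, 47.7, 39.6 and 40.0 CPM at 18 h. The spread within each stage was small beside these steps (rise 1.41 ± 0.04, adjusted p = 4.96e-11, edgeR). Of 20 clock genes 8 rose, a share near that of all tested genes, and 5 fell, Per1 by 0.13 upward and Nr1d1 by 0.31 downward, while Per2 changed by -0.02 and did not pass (adjusted p = 0.769). Etv1, an ETS factor of the MAP kinase feedback list, rose by 0.69. In that list 2 of the 17 genes rose and 15 fell, where 38.2% and 37.4% of all tested genes did. The histone deacetylase gene Hdac9 rose by 0.87.

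The 6 immune genes rose by a median log2 of 2.17. They include Rsad2, an interferon-induced antiviral enzyme, at 0.427, 0.624, 0.41 and 0.626 CPM before and 3.30, 4.77, 2.79 and 3.44 CPM at 6 h (2.80 ± 0.21, adjusted p = 1.19e-07, edgeR). The others were Xaf1 (3.04), the checkpoint receptor gene Vsir (3.03), the GTPase gene Gbp9 (1.54), the MHC class II regulator Rfx5 (1.37) and the peptide transporter Tap1 (1.13). The interferon response list had 13 of 16 tested genes that rose and 1 that fell, where 38.2% and 37.4% of all tested genes did. Its levels were low (summed 109 to 118 CPM before and 152 to 164 CPM at 6 h). Microglia markers, as a list of 12, summed to 30.5 to 33.8 CPM in stem cell medium and 43.3 to 45.3 CPM at 6 h, with 8 of them under 1 CPM in every library. Although the sum was higher at 6 h, of 4 markers tested 1 rose and 3 fell (median log2 change -0.78). Their part in the immune values was not tested.

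Neuronal genes were led by Chrna4, a nicotinic receptor subunit (mm10 chr2:181018380-181043546), which rose from 23.3, 37.5, 34.3 and 27.1 CPM to 196, 233, 204 and 194 CPM (2.79 ± 0.15, adjusted p = 7.63e-07, edgeR). At 18 h it was at 109, 89.0, 101 and 89.5 CPM, with no overlap between stages. Camk2a, a synaptic kinase, rose by 1.99 and Syt1, a synaptic vesicle protein, by 1.15. Both are on a list of 12 mature neuron markers whose sum moved the other way, from 351 to 426 CPM in stem cell medium to 289 to 320 CPM at 6 h.

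The myelin genes Mobp and Opalin rose at low levels. Opalin lay at 0.119, 0.412, 0.31 and 0.159 CPM before and at 2.17, 3.19, 2.24 and 2.38 CPM at 6 h (3.34 ± 0.30, adjusted p = 9.29e-07, edgeR). By 18 h it was back at a mean of 0.157 CPM. The sum of the mature oligodendrocyte markers, a list that contains both, did not turn back. It was 5.03 to 5.31 CPM in stem cell medium, 37.9 to 45.2 CPM at 6 h, 143 to 198 CPM at 18 h and 844 to 1583 CPM at 48 h. Mobp and Opalin thus fell while that sum went on upward. Gene by gene the list was mixed from 6 to 18 h, since of 7 tested 3 rose and 3 fell (median log2 change -0.11). The part of these markers in the 6 h values was not tested.

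Several genes of highest rank have other functions. Ky, a muscle cytoskeletal protein, rose from 3.92, 6.62, 4.89 and 4.40 CPM to 33.1, 35.8, 34.3 and 33.0 CPM (2.81 ± 0.14, adjusted p = 3.92e-08, edgeR) and was at 6.67 to 8.13 CPM at 18 h. Hrc, a calcium-binding protein of the sarcoplasmic reticulum, rose by 2.11, and Rec8, a meiotic cohesin subunit, by 2.63. Heg1, a cell surface receptor of the cardiovascular system, rose by 1.21 and BC034090 by 1.76. The log2 changes that exceeded Nkd1 were those of Arsi, a sulfatase (6.0), Wnt4 and Opalin. Arsi started from a mean of 0.0695 CPM, near the floor of the assay.

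Of the 150 genes 7 overlap another gene on the same strand, among them Pik3r3 with Gm49337, both in the set. A gene on the opposite strand overlaps 43 of them, and the strand setting of the counting is not given in the sources used here. The pairs Knstrn with Gm14091, Rfx5 with B230398E01Rik, and Lockd with Gm44238 overlap on opposite strands and are each counted as separate genes. Without the strand setting, reads of such partners cannot be told apart.

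A comparison with the 18 h stem cell libraries mixes the loss of growth factors with time in culture. Old doxycycline-treated cells also had stem cell libraries labelled 6 h, to which the 6 h differentiation libraries were set. Differentiation began 18 h after plating, and the start of the stem cell hours is not given. Time in culture may therefore differ in this comparison too. Against these, 141 of 150 genes were higher in differentiation (41.4% of tested genes were) and 2 were lower (39.3%). Of the mitosis genes 36 of 41 were higher, by a median log2 of 0.63, and of the others 105 of 109, by a median of 1.77. The 7 genes that passed in neither direction were Pimreg, Cdc20, Ccnb1, Pif1, Nek2, Cdca8 and Igf1, of which the first 6 are mitosis or chromosome genes. With animals as blocks 146 genes were higher (41.6%) and 2 lower (39.4%), and 40 of 41 mitosis genes were higher. Of the 7, the block turned Cdca8 (adjusted p = 0.00178), Cdc20 (0.00219), Pif1 (0.00332), Pimreg (0.0487) and Ccnb1 into calls, while Nek2 (0.0684) and Igf1 (0.182) did not pass (edgeR).

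**Figure D3:**
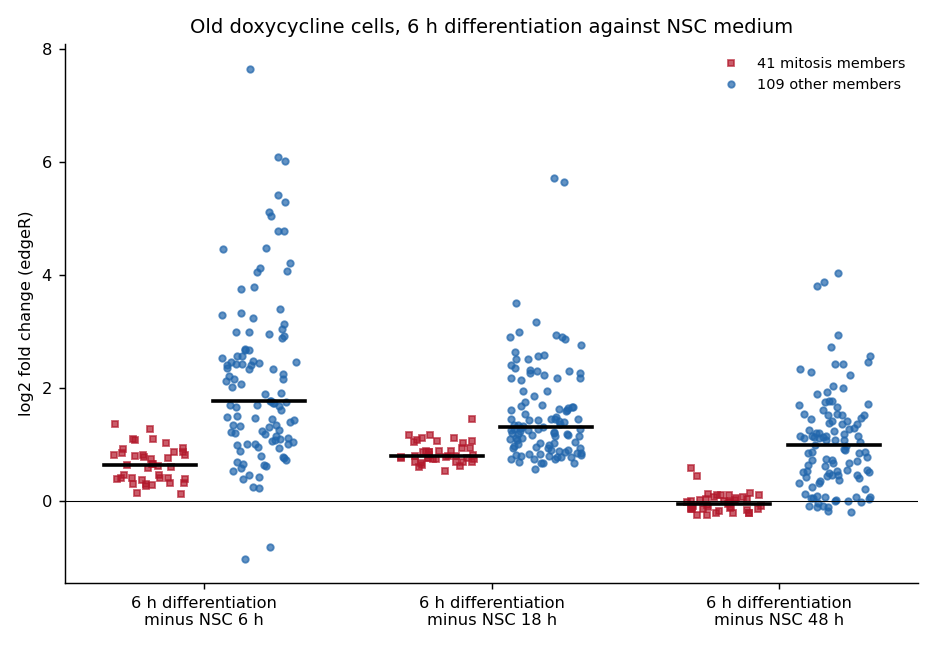
Log2 fold change of each of the 150 genes in old doxycycline-treated cells at 6 h of differentiation against stem cell medium labelled 6, 18 and 48 h, with points for genes split into 41 mitosis and 109 other genes and black lines for medians. The mitosis genes had medians of 0.63, 0.80 and -0.06 against the 3 media times, and the other genes medians of 1.77, 1.30 and 0.99.

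Ccnb1 shows how close the mitosis genes were, with 102, 144, 101 and 114 CPM in stem cell medium labelled 6 h and 127, 149, 121 and 153 CPM in differentiation. The groups overlapped (0.29 ± 0.12, adjusted p = 0.0593, edgeR), although with animals as blocks the gene passed (adjusted p = 0.000485). Cdc20 lay at 102, 143, 98.7 and 114 CPM and at 119, 145, 115 and 154 CPM, which also overlapped (0.26 ± 0.14, adjusted p = 0.114). For Plk1 the values were 77.7, 114, 77.5 and 89.1 CPM against 105, 123, 97.7 and 133 CPM (0.39 ± 0.15, adjusted p = 0.0363), and the call was lost without animal 1, without animal 4 and with no filter on low counts. Ccnb2 differed more, at 25.3, 34.8, 26.2 and 30.1 CPM against 59.7, 76.4, 56.5 and 80.2 CPM (1.27 ± 0.14, adjusted p = 3.08e-05).

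The other genes stood well apart. Nkd1 was at 5.85, 7.42, 7.19 and 8.35 CPM in stem cell medium labelled 6 h and at 144, 167, 136 and 178 CPM in differentiation (4.48 ± 0.12, adjusted p = 6.74e-10, edgeR). Mfng was at 0.872, 1.35, 1.16 and 1.31 CPM in that medium and differed by 5.03 ± 0.12 (adjusted p = 8.34e-12). Per3, at 5.45, 5.73, 5.44 and 4.70 CPM, differed by 3.74 ± 0.07, and Chrna4, at 7.05, 10.5, 10.3 and 9.40 CPM, by 4.45 ± 0.12. Ky differed by 6.01, Mobp by 6.09 and Arsi by 7.65, each from a mean under 1 CPM.

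The 2 genes that were lower in differentiation were Lbh and Gramd2. Lbh, a transcriptional cofactor (mm10 chr17:72918305-72941947), was at 1076.5, 839, 1115.8 and 944 CPM in stem cell medium labelled 6 h and at 584.6, 504, 544 and 559 CPM in differentiation (-0.82 ± 0.09, adjusted p = 1.04e-05, edgeR). In untreated stem cell medium at 18 h it was at 343, 273, 349 and 290 CPM, so its 6 h differentiation values of 512 to 589 CPM in untreated cells lay between the 2 media times. Gramd2 was at 10.96, 8.86, 9.63 and 10.5 CPM in medium and 4.58, 5.53, 4.35 and 4.66 CPM in differentiation (-1.03 ± 0.10, adjusted p = 1.07e-06). Neither gene is thus at its highest at 6 h of differentiation among all groups of the series.

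Stem cell medium itself was not a fixed reference. From 18 h to 48 h in that medium, with doxycycline in old cells, 124 of the 150 genes rose (26% of tested genes did) and 12 fell (26.3%). All 41 mitosis genes rose, by a median log2 of 0.88, and 83 of the other 109, by a median of 0.51. Set against stem cell medium labelled 48 h, 92 genes were higher at 6 h of differentiation (35.9% of tested genes were) and 6 lower (33.9%). Among the others 90 of 109 were higher, by a median log2 of 0.99. Among mitosis genes 2 were higher, Gpsm2 (0.57) and Cdc25b (0.44), and 6 were lower, Nuf2, Prc1, Pimreg, Nek2, Pttg1 and Ckap2, by log2 changes of -0.26 to -0.15. With animals as blocks 96 genes were higher (37.7%) and 14 lower (35.4%), and of the mitosis genes 5 and 12. Without blocks the lower count was 0 without animal 1, 3 without animal 3 and 14 without animal 4, and the comparisons with 48 h were added after the data were seen.

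Ccnb2 illustrates this at 61.3, 66.8, 60.2 and 66.7 CPM in stem cell medium labelled 48 h, within the range of 56.5 to 80.2 CPM at 6 h of differentiation (difference 0.12 ± 0.11, adjusted p = 0.359, edgeR). Plk1 was at 139, 133, 128 and 140 CPM, and its difference of -0.21 ± 0.09 passed only with animals as blocks (adjusted p = 0.0678 without and 0.0183 with blocks, edgeR). Nkd1 at 29.6, 34.5, 28.4 and 38.6 CPM and Wnt4 at 0.841, 1.09, 0.683 and 1.75 CPM remained far below their 6 h differentiation values (differences 2.28 ± 0.12 and 3.87 ± 0.29). By group means the 48 h stem cell level exceeded that at 6 h of differentiation for 28 of 41 mitosis genes and 12 of 109 others. Of all 6 old doxycycline groups the 6 h differentiation group was the highest for 13 of 41 and 95 of 109. Shares over all genes were not counted for these group means.

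Between the stem cell libraries labelled 6 and 18 h, 22 of 149 tested genes were higher at 6 h (30.7% of tested genes were) and 66 were lower (30.6%). The mitosis genes gave 10 higher and 1 lower, and the others 12 higher and 65 lower. Without animal 1 the higher count was 11 and without animal 2 it was 13, and with animals as blocks it was 48 (34% of tested genes) and the lower count 72 (33.9%). Lbh was 1.60 higher at 6 h on the log2 scale, and Per3 (-2.59), Mfng (-2.18) and Nkd1 (-1.33) were lower.

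At later times most mitosis genes were below stem cell medium. With doxycycline in old cells, 42 of 150 genes were higher at 18 h of differentiation than in stem cell medium at 18 h (41.4% of tested genes were) and 82 were lower (40%). Of the mitosis genes 40 were lower and 1 higher, with a median log2 change of -4.39. Of the others 41 were higher and 42 lower, with a median of -0.07. At 48 h 16 genes were higher than in stem cell medium labelled 48 h (39.8%) and 124 lower (37.1%), including all 41 mitosis genes.

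The same stages were followed in old cells given doxycycline. With doxycycline all 150 rose from 18 h in stem cell medium to 6 h of differentiation (38.5% of tested genes rose), by a median log2 of 1.13. All 150 fell from 6 to 18 h (33.8%), by a median log2 change of -1.80, and 149 fell from 6 to 48 h (37%), by -2.65. The gene that did not pass was Reps2, an endocytosis protein, at -0.16 ± 0.15 (adjusted p = 0.37, edgeR). The 6 h group was the highest of the 4 matching stages for all 150 genes (21.1% of all genes), with a median peak height of 0.76, and in 149 every 6 h library was above all others (10.1%).

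**Figure D4:**
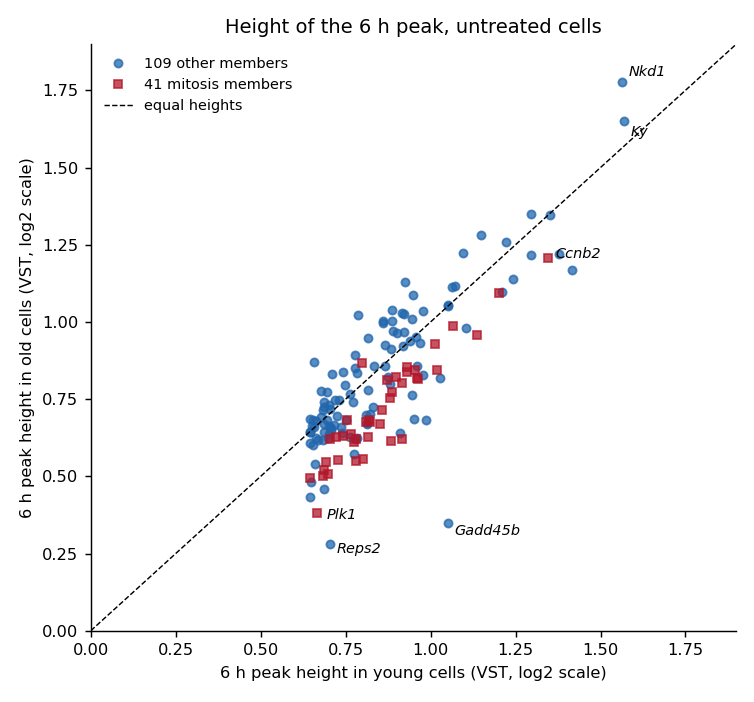
Peak height in VST units of each of the 150 genes in young untreated cells (x axis) against old untreated cells (y axis), with points for genes split into 41 mitosis and 109 other genes and a dashed line of equal values. The young values chose the genes, and the peak was lower than in young cells for 40 of 41 mitosis genes and 58 of 109 others.

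Old and young untreated cells are compared as a description only, since the young values chose the genes. At 18 h in stem cell medium the group mean was higher in old cells for 41 of 41 mitosis genes, by a median of 0.31 VST units. At 6 h of differentiation it was higher for 41 of 41 too, by a median of 0.16, and at 18 h for 5 and at 48 h for 10. Among the other 109 genes it was higher for 64 in stem cell medium and for 55, 31 and 47 at 6, 18 and 48 h. Shares over all genes were not counted, so a shift across all genes cannot be told apart. The peak was lower in old cells for 40 of 41 mitosis genes (median difference -0.14). For the other genes the median difference in peak height was 0.00. Young animal 5 bears on this, since its mitosis mean was 11.71 VST units in stem cell medium against 12.10 to 12.24 in the other young animals, and 12.70 against 12.998 to 13.05 at 6 h. The old libraries lay at 12.21 to 12.58 and 12.97 to 13.26.

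When doxycycline was compared with no treatment at the same stage in old cells, no gene of the 150 passed in the main edgeR fits, which have no animal blocks. In old cells at 6 h of differentiation 0 of 150 were higher (0.0294% of tested genes were) and 0 lower (0%), and 17 had an unadjusted p under 0.05 (edgeR), as had 8.85% of all tested genes. In stem cell medium at 18 h the same counts were 0 of 149 in old cells (0.012% higher and 0.00601% lower), with 9 at an unadjusted p under 0.05 (8.8% of all). At 18 and 48 h of differentiation in old cells 0 of 149 (0.0118% and 0%) and 0 of 148 (0.0237% and 0.00592%) passed, with 10 (6.69% of all) and 23 (8.83% of all) at an unadjusted p under 0.05. DESeq2, also without blocks, called 2 genes higher in old stem cell medium and 1 at 18 h of differentiation, and none lower. Shares of all tested genes were not counted for DESeq2, so nothing is read from these calls.

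Each treated old library has an untreated library of the same animal, and with animals as blocks mitosis genes were lower with doxycycline in stem cell medium and at 6 h of differentiation. In old stem cell libraries of 18 h, 49 genes fell (7.01% of tested genes did), 38 of them mitosis genes, and 8 rose (4.18%). In old cells at 6 h of differentiation 39 fell (1.98%), 31 of them mitosis genes, and 4 rose (1.69%). At 18 h of differentiation 0 rose (0.489%) and 1 fell (0.394%), Cacng5, and at 48 h 4 rose (2.13%) and 5 fell (2.02%).

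The differences were small. Young stem cell medium is set beside them as a description with no test, since its untreated libraries took part in choosing the genes. The median log2 change of the 41 mitosis genes was -0.21 in old and -0.29 in young stem cell medium and -0.15 at 6 h of differentiation, each gene being below 0 in all 3 comparisons. The other genes had medians of -0.01, 0.00 and -0.01. Per animal, the mean VST value of the mitosis genes was lower with doxycycline by 0.165 to 0.232 in 4 of 4 old animals and by 0.219 to 0.346 in 5 of 5 young animals in stem cell medium. At 6 h of differentiation it was lower by 0.107 to 0.158 in 4 of 4. At 48 h the drop was 0.0396 to 0.0753 in 4 of 4 animals, and at 18 h the values ran from -0.0346 to 0.0276.

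**Figure D5:**
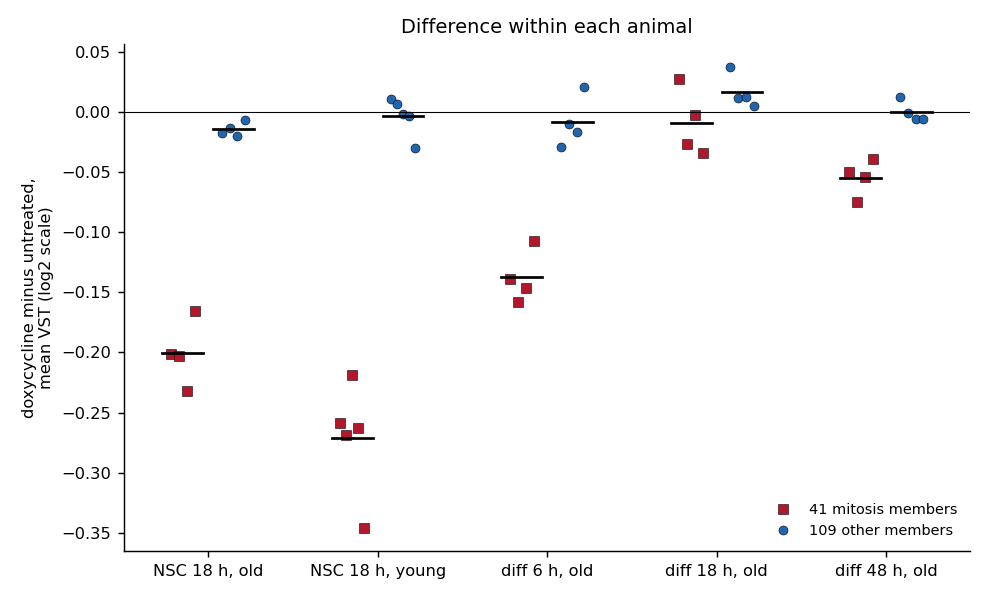
Doxycycline minus untreated mean VST value within each animal at each matched stage, for the 41 mitosis genes and the other 109, with points for animals and black lines for their means. In stem cell medium and at 6 h of differentiation every animal was below 0 for the mitosis genes, down to -0.346 in young stem cell medium, while the other genes lay between -0.0305 and 0.0208 at these stages.

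Prc1, a protein that bundles the microtubules of the central spindle, shows the pairing. In old stem cell medium it was at 136, 166, 131 and 173 CPM untreated and at 111, 140, 104 and 146 CPM with doxycycline in animals 1 to 4. Each animal was lower with doxycycline although the groups overlapped (-0.26 ± 0.14, adjusted p = 0.625 without blocks, and -0.27 ± 0.02, adjusted p = 8.14e-09 with blocks, edgeR). Ccnb1 in young animals 1 to 5 was at 77.7, 91.2, 88.7, 92.4 and 49.95 CPM untreated and 63.0, 64.8, 72.7, 66.5 and 40.9 CPM with doxycycline. It was lower in all 5, with animal 5 lowest in both groups, which is given as a description with no test.

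Among genes higher with doxycycline in the blocked fits, Jup passed both in stem cell medium and at 6 h of differentiation in old cells. In old stem cell medium it was at 22.0, 19.96, 20.6 and 18.4 CPM untreated and 27.5, 26.1, 23.4 and 22.4 CPM treated, with no overlap (0.31 ± 0.08, adjusted p = 0.317 without and 9.98e-06 with blocks, edgeR). In young stem cell medium it was at 21.3, 16.2, 22.2, 21.5 and 23.4 CPM and at 30.2, 24.1, 31.9, 31.1 and 27.6 CPM, a description with no test. At 6 h of differentiation in old cells it was at 70.7, 72.0, 59.8 and 68.3 CPM and at 79.4, 80.6, 67.3 and 81.2 CPM (0.19 ± 0.07, adjusted p = 0.509 and 0.00271). Per3 was higher by 0.21 in old stem cell medium (adjusted p = 0.000669 with blocks). Prc1, Jup and the other genes of these blocked fits were chosen after their values were seen.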

How the data were processed

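Poly(A) RNA of cultured neural stem cells was read as stranded paired reads, pooled and sequenced together, per the labels' protocols. Per the submitters' processing notes, the tools were STAR 2.7.10b, Trim Galore 0.6.6, Subread, SAMtools and DESeq2 1.40.1, and the build was mm10. The deposited count table holds whole-number counts of 31057 features in 65 libraries, not normalised. A value of 2 occurs 75644 times and a value of 1 only 19963 times, so each mate of a pair was usually counted on its own. A second deposited table holds VST values, which are log2-like and come from DESeq2 according to the submitters' processing notes. It served to choose the genes and to describe their peak heights. Names come from GENCODE M21 (31011 features) and promoter sequences from RefSeq (GRCm38.p6).

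Each comparison was fitted on the counts of its 2 groups over all features with edgeR 4.0.16 in R 4.3.3 (TMM, low counts removed by filterByExpr at a minimum of 10, robust quasi-likelihood, Benjamini-Hochberg adjusted p under 0.05 as the call). All adjusted p-values are from these edgeR fits unless another tool is named. Values are log2 fold changes ± SE, and levels are TMM-scaled CPM. The SE was taken as the absolute log2 fold change divided by the square root of the quasi-likelihood F. Without blocks it holds the spread between animals and counting error, and with blocks only the spread left after the animal terms. The fits were tested on simulated counts.

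Alternatives were DESeq2 1.42.0, upper quartile scaling, no filter, limma 3.58.1 on the deposited log2 values, animals as blocks, and leaving out each animal. The labels pair libraries by animal number. Over 12406 genes, deviations from the group means correlated between libraries of 1 animal by medians of -0.06 to 0.61 over the comparisons (lowest single pair -0.44). For doxycycline against none these medians were 0.40 to 0.61, and between different animals -0.30 to -0.09. The lowest median, from 48 h against 6 h of differentiation with doxycycline, stood beside 0.11 between different animals. The pairing itself is taken from the labels. The main fits have no animal term, and blocked counts or values are given for some of the results where calls change. Doxycycline against none in young cells is given as a description, since its untreated libraries helped to choose the genes.

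The 150 genes, the gene lists and the tests were chosen with earlier results of these data known. Named genes are the 12 of highest rank, those in the pathway lists, the largest changes to 6 h, those just around the limit, the lowest peaks in old cells and transcription factors by symbol. Other genes were named after their values were seen. Coordinates are mm10. Python 3.11.15 with pandas 2.3.3 made the tables.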

Additional observations from a re-analysis of the deposited data

Results flagged for a closer look

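Among 118 groups of libraries examined for a library far from the rest, 8 held one by Dixon's test at 95%, and chance gives about 1 in 20. In 3 of them the lowest mean VST value of the mitosis genes belonged to young animal 5. It was 11.715 in untreated stem cell medium at 18 h (others 12.10 to 12.24), 11.369 with doxycycline in that medium (others 11.84 to 11.98) and 12.704 at 6 h of differentiation (others 12.998 to 13.05).

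For the other 109 genes the highest library was 10.741 in old untreated stem cell medium (animal 2, next 10.66). It was 10.62 at 18 h of differentiation in old untreated cells (animal 1, next 10.60) and 10.657 in old doxycycline-treated cells at the same time (animal 1, next 10.61). Chrna4 in animal 2 was at 222.53 CPM at 6 h of differentiation with doxycycline (next 194.6), and Per3 in animal 2 at 47.658 CPM at 18 h in untreated old cells (next 40.2).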

How the results depend on the processing

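Over 120 values of 40 named genes, no alternative reversed a direction. The 31 counts of genes were compared by size only, which cannot show a reversal. All counts of the rise to 6 h and of the later falls kept within 1.5 times of the reported ones under every alternative run. With animals as blocks, the replicate pairing of the labels, doxycycline against none gave 4 genes higher and 39 lower at 6 h of differentiation. It gave 8 and 49 in old stem cell medium, 1 lower at 18 h, and 4 higher and 5 lower at 48 h. The main edgeR fits, without blocks, gave 0 for each. In young stem cell medium, whose untreated libraries took part in choosing the genes, the block gave 10 and 53, DESeq2 1 higher and leaving out an animal 0 to 3 higher and 0 to 36 lower (36 without young animal 5). Nothing is read from these. The block also gave 48 genes higher in stem cell medium labelled 6 h than 18 h (22 without) and 14 lower at 6 h of differentiation than in stem cell medium labelled 48 h (6 without), and changed no other count by over 1.5 times. DESeq2 called 2 genes higher in old stem cell medium with doxycycline, 1 higher at 18 h of differentiation, and 12 lower against stem cell medium labelled 48 h. Shares of all tested genes were not counted for DESeq2. The cause of these differences was not tested.

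Leaving out an animal gave 11 to 24 genes higher in stem cell medium labelled 6 h and 0 to 14 lower against stem cell medium labelled 48 h. Between 141 and 144 of the 150 genes stayed in the set without 1 young animal, 119 with log2(CPM + 1) in place of VST values and 140 with a higher count minimum. Genes under about 1 CPM in stem cell medium, such as Arsi, Wnt4 and Igf1, have the least certain folds.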
